A study of Mus musculus with 12 samples.

Results

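Apolipoproteins and the genes of lipoprotein transport were followed in cortical OPCs and neurons of ctl and dKO mice. The group held 10 genes chosen by name: the apolipoprotein genes Apoe, Apoc1, Apod and Clu, the ABC transporter genes Abca1, Abca7 and Abcg1, and the receptor genes Lrp1, Vldlr and Sorl1. Apoe and Apoc1 lie beside each other on chromosome 7, and the others are spread over other chromosomes. All 10 were listed among the 30165 genes of the OPC table and among the 17918 genes of the neuron table, and all 10 passed the minimum for testing, a mean normalized count of 10 over the 6 libraries of a fraction. Apoc1 in neurons passed through its dKO libraries, as its ctl mean was 9.19. The study asked whether OPCs and neurons communicate through direct contacts of OPC processes with neuronal somata. Mice whose OPCs lose Cav1.2 and Cav1.3, channels that admit calcium on depolarization, served as a model with fewer such contacts. RNA-seq was performed on 12 libraries, 3 per group, each from cells of 2 mice pooled. The dKO mice carried floxed alleles of Cacna1c (Cav1.2) and Cacna1d (Cav1.3) together with NG2-CreERT2, a tamoxifen-inducible recombinase driven from the NG2 locus, which is active in OPCs and also in pericytes. The ctl mice are labelled WT, and whether they carried the recombinase or a floxed allele is not given in the sources used here. In the methods, which do not name these libraries, the tamoxifen dose is 100 mg/kg, given on 2 days (postnatal days 7 and 8). Whether ctl mice also received tamoxifen and the age at cell isolation are not given in the sources used here. The neurons came from the same kind of mice, in which the neurons themselves were not targeted. OPCs were sorted positively, on magnetic beads that bind CD140, NG2 or O4. Neurons were sorted negatively, as the cells left after depletion of those bearing ACSA-2, CD31, CD11b or O4.

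In the brain, apolipoproteins such as ApoE, clusterin and ApoD carry cholesterol and phospholipid between cells, and glia make most of them. ABC transporters load lipid from the cell onto these particles, and receptors such as LRP1 and VLDLR and the sorting receptor SORL1 take the particles up or direct them inside the cell. Transcription of Apoe, Abca1 and Abcg1 is driven by the liver X receptors, which sense oxidized cholesterol.

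The libraries held 14935963 to 19812274 counts in OPCs and 15052901 to 16344585 in neurons. The sorted fractions were mixed. In the ctl OPC libraries the 10 oligodendrocyte markers summed to 40880 to 52682 TPM (a level per length, scaled to the same total in each library), against 1897 to 2995 TPM for the 10 OPC markers. O4, one of the bead targets, is also carried by more mature cells of the lineage. In the ctl neuron libraries the 10 endothelial markers summed to 23066 to 27459 TPM, against 513 to 700 TPM for the 10 neuronal markers, so the label neuron is used here as a name of the fraction. Transthyretin, made by the choroid plexus, made up 97.7% of the choroid plexus and ependyma sum in the OPC table and 99.2% in the neuron table. In such bulk libraries fewer cells of a type and less RNA per cell cannot be told apart. The targeted Cacna1c was lower in all dKO OPC libraries (407 ± 33.1 normalized counts in ctl and 300.4 ± 43.5 in dKO, SD, n = 3 each, log2 fold change -0.44), with an adjusted p of 0.349 in edgeR's quasi-likelihood test. Cacna1d was 232 ± 36.1 in ctl and 159 ± 69.9 in dKO OPCs, and these libraries overlapped.

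The sequence before a gene's start holds part of what sets its transcription, and RefSeq promoter windows (GRCm38.p6, from 250 bases before to 50 bases after a start) matched 7 of the 10 genes, with 11 windows. Shown are the windows at or near which 4 of the 5 Apoe transcripts of the neuron table start in GENCODE M21 (XM_030242015 was not matched), and those of Apod and of the downstream Vldlr start, since the differences of these genes are described most closely here. Capitals mark 3 motifs searched on both strands, namely the TATA box as TATAAA, the GC box as GGGCGG and the CCAAT box by its name, with no overlap among the hits printed here.
Apoe, first start, chr7:19699139-19699438, minus strand: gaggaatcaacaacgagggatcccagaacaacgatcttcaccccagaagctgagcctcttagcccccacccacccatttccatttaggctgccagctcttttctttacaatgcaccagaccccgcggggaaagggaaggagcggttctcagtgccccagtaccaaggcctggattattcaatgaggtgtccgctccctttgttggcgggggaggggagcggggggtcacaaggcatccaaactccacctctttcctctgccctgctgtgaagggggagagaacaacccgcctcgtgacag
Apoe, start 790 bases downstream, chr7:19698349-19698648, minus strand: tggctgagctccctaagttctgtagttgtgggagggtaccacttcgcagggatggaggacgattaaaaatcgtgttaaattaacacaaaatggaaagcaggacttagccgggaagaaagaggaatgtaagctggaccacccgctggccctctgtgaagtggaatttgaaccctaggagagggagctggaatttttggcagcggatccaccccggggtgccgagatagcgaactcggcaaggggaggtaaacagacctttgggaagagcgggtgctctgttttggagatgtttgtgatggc
Apod, chr16:31314759-31315058, minus strand: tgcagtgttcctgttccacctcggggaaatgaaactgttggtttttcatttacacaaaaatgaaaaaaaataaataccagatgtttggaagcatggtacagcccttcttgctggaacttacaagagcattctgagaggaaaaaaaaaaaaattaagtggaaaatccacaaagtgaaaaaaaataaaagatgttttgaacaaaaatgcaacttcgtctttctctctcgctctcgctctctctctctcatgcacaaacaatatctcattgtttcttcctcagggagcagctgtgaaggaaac
Vldlr, chr19:27216770-27217069, plus strand: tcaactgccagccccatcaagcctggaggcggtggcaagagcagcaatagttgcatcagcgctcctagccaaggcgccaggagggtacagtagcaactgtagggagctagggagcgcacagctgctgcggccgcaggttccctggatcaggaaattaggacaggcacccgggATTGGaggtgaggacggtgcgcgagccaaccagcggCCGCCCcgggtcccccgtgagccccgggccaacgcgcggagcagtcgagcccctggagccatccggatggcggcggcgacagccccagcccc
Neither the Apoe windows printed nor the Apod window held any of these letters, while the Vldlr window held GGGCGG and CCAAT once each, both on the opposite strand. Another Apoe window, which begins 567 bases downstream of the first and is not printed, held TATAAA once on each strand. Among all 32851 windows of the table, 13.6% held TATAAA, 35.7% GGGCGG and 37.4% CCAAT. These are letter matches and not sites of binding.

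Apoe was the most abundant of the 10 genes in both fractions. In ctl OPCs its level was 2782 ± 165 TPM (SD, n = 3), above 99.8% of the genes tested, followed by Apod at 1572 ± 281 and Clu at 1074 ± 199 TPM. These 3 lipid carriers lay more than an order of magnitude above the transporters and receptors. Abcg1 (77.4 ± 15.9 TPM), Lrp1 (71.2 ± 8.27) and Vldlr (69.2 ± 4.27) followed, and the libraries of neighbours in this run of 3 overlapped. Sorl1 (57.3 ± 7.08 TPM), Abca1 (44.0 ± 2.84), Abca7 (37.6 ± 3.95) and Apoc1 (9.31 ± 2.82) came last, each with all its libraries below those of the gene before it, although Abca1 and Abca7 overlapped in the deposited FPKM.

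In ctl neurons Apoe was again first, at 1193 ± 420 TPM and above 99.6% of the genes tested, and all of its libraries lay above those of Clu (341 ± 162 TPM). Clu and Apod (206 ± 76.5 TPM) overlapped. Abcg1 (24.5 ± 5.30 TPM) and Abca1 (21.4 ± 2.74 TPM) formed a middle pair that overlapped. The last 5 genes, Apoc1, Abca7, Lrp1, Vldlr and Sorl1, lay between 3.47 and 4.89 TPM, and every neighbour in that order overlapped. Set side by side in TPM, the ctl mean was higher in OPCs than in neurons for all 10 genes. The ratio was 17.5 for Lrp1, 17.2 for Vldlr and 16.5 for Sorl1, the 3 receptors, 8.31 for Abca7 and 7.62 for Apod, and between 1.91 and 3.16 for Apoc1, Abca1, Apoe, Clu and Abcg1. The direction depended on the unit for Abca1 and Apoc1. In the deposited FPKM their ctl means were higher in neurons, at 11.96 in OPCs and 12.96 in neurons for Abca1. For Apoc1 they were 2.536 and 2.947. The tables were quantified separately, so the TPM ratios are a description and the difference between fractions was not tested.

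**Figure D1:**
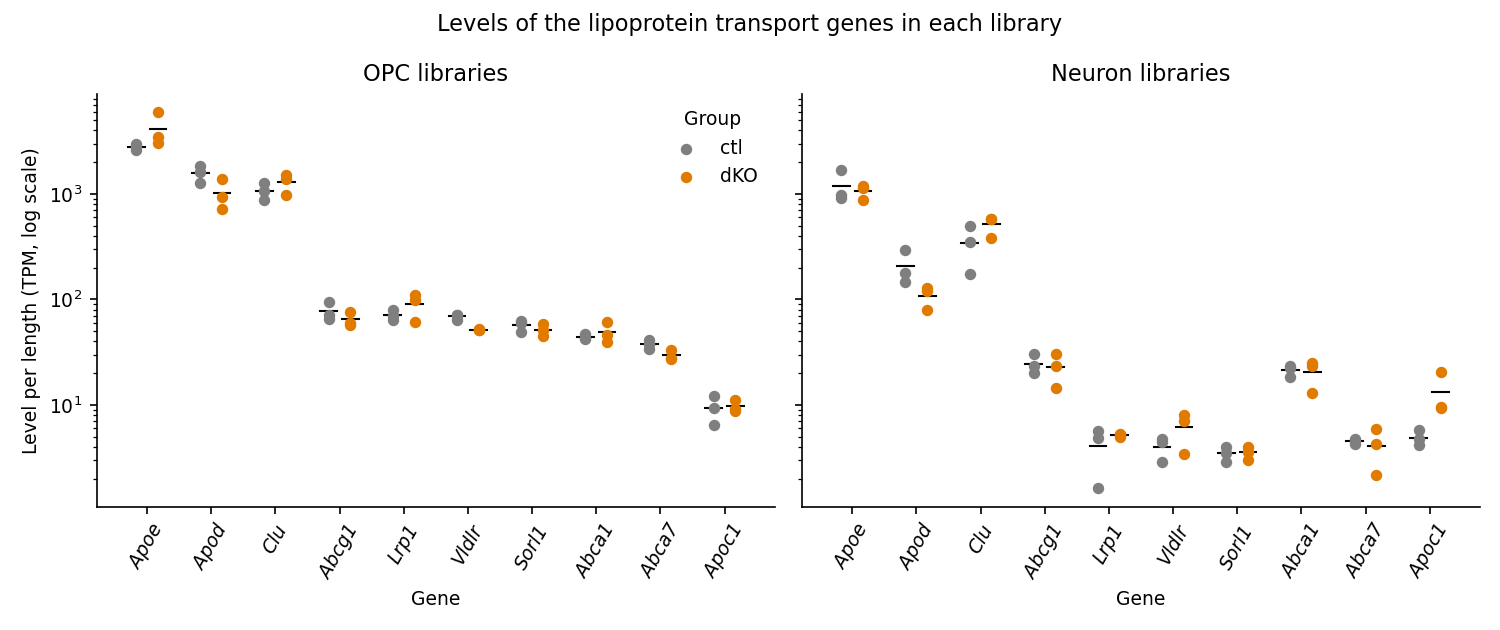
Level per length (TPM, log axis) of the 10 genes in each OPC library (left) and neuron library (right), with a point per library, ctl in grey, dKO in orange and a bar at each group mean. Apoe, Apod and Clu lie far above the other genes in OPCs, and the receptors lie near 4 TPM in ctl neurons.

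In OPCs, dKO and ctl were compared for 17364 genes with edgeR's quasi-likelihood test and Benjamini-Hochberg adjustment. None of the 10 genes had an adjusted p under 0.05, against 0.00576% of all genes tested (1 gene), and 0 of the 10 were called by DESeq2 (1.69% of all genes with an adjusted p), by edgeR's likelihood-ratio test (1.7% of all genes tested) or by limma (0.0115%). At an unadjusted p under 0.05, 3 of the 10 passed against 11.5% of all genes tested. Apoe was higher in dKO (background of genes higher 6.27%), and Abca7 and Vldlr were lower (background of genes lower 5.27%). The same 3 genes had groups that did not overlap, against 17% of all genes tested (7.41% higher and 9.55% lower in dKO). The count of 3 depended on single libraries. It was 0 when ctl replicate 1 was left out, and 1 when either ctl replicate 2 or dKO replicate 2 was. Leaving out dKO replicate 1 gave 5. The median log2 fold change of the 10 genes was 0.03, against 0.01 over all genes tested.

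Apoe encodes the main lipid carrier of the brain. Its normalized counts in ctl OPCs were 27287, 27982 and 30091, and those in dKO OPCs were 34224, 67762 and 34205. Every dKO library lay above every ctl library, and dKO replicate 2 lay far above all others. The means were 28454 ± 1460 in ctl and 45397 ± 19369 in dKO, a log2 fold change of 0.67 (SE 0.28, unadjusted p = 0.0434, adjusted p = 0.426, edgeR). Without dKO replicate 2 it was 0.27 (unadjusted p = 0.221, edgeR), and 7 of 13 alternatives had an unadjusted p under 0.05.

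Apod encodes a lipocalin that binds lipids and is abundant in the oligodendrocyte lineage. Its normalized counts in OPCs were 15957, 22222 and 19882 in ctl and 19028, 9885 and 10993 in dKO. Replicates 2 and 3 of dKO were below all ctl libraries, whereas dKO replicate 1 lay within the ctl range. The log2 fold change was -0.54 (SE 0.26, unadjusted p = 0.0718, adjusted p = 0.474, edgeR). It was -0.89 without dKO replicate 1, -0.37 without dKO replicate 2 and -0.43 without ctl replicate 2.

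Clu encodes clusterin, an apolipoprotein and extracellular chaperone. Its normalized counts in OPCs were 21277, 14158 and 17676 in ctl and 17832, 27551 and 21780 in dKO, so the groups overlapped, with the highest value again in dKO replicate 2. The log2 fold change of 0.34 (SE 0.22) was within the spread between libraries, and was 0.16 without dKO replicate 2 and 0.20 without ctl replicate 2. Apoc1, a small apolipoprotein, was low, with normalized counts of 22.6 to 43.7 in ctl and 31.0 to 44.5 in dKO. Its log2 fold change was 0.13 (SE 0.35), which turned to -0.08 when ctl replicate 2 was left out and to -0.04 when dKO replicate 2 was.

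Of the transporters in OPCs, Abca7, a phospholipid transporter, had normalized counts of 1363, 1200 and 1081 in ctl and of 983, 990 and 1038 in dKO. All dKO libraries were below all ctl libraries, though the gap between dKO replicate 3 and ctl replicate 3 was small. The log2 fold change was -0.28 (SE 0.11, unadjusted p = 0.0380, adjusted p = 0.412, edgeR), and 5 of its 13 alternatives had an unadjusted p under 0.05. It was -0.19 (unadjusted p = 0.151, edgeR) without ctl replicate 1. Abca1, which exports cholesterol to apolipoproteins, had 2039 to 2380 normalized counts in ctl and 2141 to 2888 in dKO (log2 fold change 0.21, SE 0.14). Abcg1, which exports cholesterol to lipidated particles, had 2326 to 3286 in ctl and 2021 to 2931 in dKO (log2 fold change -0.17, SE 0.18). For both transporters the groups overlapped. With a library left out, Abca1 ranged from 0.093 (without dKO replicate 3) to 0.32 (without dKO replicate 1) on the log2 scale. Abcg1 ranged from -0.34 (without dKO replicate 1) to -0.0053 (without ctl replicate 2). Abcg1 overlaps a gene of a 5S ribosomal RNA on the same strand.

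Of the receptors in OPCs, Vldlr, which binds Reelin as well as ApoE-bearing particles, had normalized counts of 3509, 3407 and 3086 in ctl and of 2726, 2765 and 2433 in dKO. The groups were well apart, with little spread in either. The means were 3334 ± 221 and 2641 ± 181, a log2 fold change of -0.34 (SE 0.11, unadjusted p = 0.0158, adjusted p = 0.335, edgeR), and the value stayed between -0.40 and -0.29 with each library left out in turn. The adjusted p ranged from 0.140 to 0.779 over its 13 alternatives, 12 of which had an unadjusted p under 0.05.

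Lrp1, a large endocytic receptor for ApoE, had normalized counts of 6909, 5332 and 5885 in ctl OPCs and of 5742, 10330 and 8086 in dKO OPCs. The groups overlapped, with dKO replicates 2 and 3 above all ctl libraries, and the log2 fold change was 0.41 (SE 0.21, unadjusted p = 0.0876, edgeR). It was 0.19 without dKO replicate 2 and 0.61 (unadjusted p = 0.0107, edgeR) without dKO replicate 1. Sorl1, which sorts cargo away from endosomes, differed little, with 2711 to 3331 normalized counts in ctl and 2702 to 3107 in dKO (log2 fold change -0.07, SE 0.12). The antisense RNA genes Gm16217 and Gm16214 overlap Lrp1 and Sorl1 on the opposite strand, and whether the counting used strand is not stated.

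The summed markers of other cell types also differed between libraries. In OPC libraries the summed astrocyte markers were 586, 880 and 1046 TPM in ctl replicates 1, 2 and 3 and 930, 2575 and 1568 TPM in dKO. All 10 markers were higher in dKO by fold change and none was at 0 in any library. Apoe, Clu and Lrp1, which astrocytes also express, were highest in dKO replicate 2, where the astrocyte sum was highest, and Apod was lowest there. Among ctl, Clu and Lrp1 were instead highest in replicate 1, where the astrocyte sum was lowest, whereas Apoe and Apod were lowest there. The summed microglia markers were 439 to 545 TPM in ctl and 1255, 543 and 1796 TPM in dKO, also with 10 of 10 higher and none at 0, and they were lowest among dKO in replicate 2. The oligodendrocyte markers summed to 40880 to 52682 TPM in ctl and to 45901, 37349 and 31641 TPM in dKO, with 2 of 10 higher by fold change and none at 0. In the 2 dKO libraries with the lower oligodendrocyte sums, Apod was also lower. The OPC markers summed to 1897, 2995 and 2318 TPM in ctl and to 2436, 2422 and 1561 TPM in dKO, with 7 of 10 higher by fold change. The perivascular macrophage markers were low and did not overlap, at 23.8 to 25.1 TPM in ctl and 28.1 to 54.7 TPM in dKO, with 6 of 6 higher. The endothelial sum was 1463 to 2114 TPM in ctl and 2403, 1104 and 3413 TPM in dKO, with 10 of 10 higher. The choroid plexus and ependyma sum stood apart in ctl replicate 1, at 68311 TPM against 30667 and 34202 TPM in the other ctl libraries and 44562 to 50078 TPM in dKO. This is the library without which none of the 10 genes had an unadjusted p under 0.05. None of these markers was at 0 in any library. The part of these markers in the differences was not tested.

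In neurons, 14352 genes were tested. None of the 10 genes had an adjusted p under 0.05 with edgeR's quasi-likelihood test, and 0% of all genes tested did. DESeq2 called 1 of the 10, Apod, against 0.614% of all genes with an adjusted p, whereas edgeR's likelihood-ratio test (0.3% of all genes tested) and limma (0%) called 0. Apoc1 was tested through its high dKO libraries alone, so it is described below and left out of the counts that follow. At an unadjusted p under 0.05, 1 of the other 9 genes passed, Apod, which was lower in dKO. Of all genes tested 9% passed (4.96% higher and 4.04% lower in dKO). Apod also had groups that did not overlap, against 15.3% of all genes tested (7.5% higher and 7.82% lower in dKO). The count was 2 when ctl replicate 1 was left out and 3 when dKO replicate 2 was. The median log2 fold change of the 9 genes was -0.08, and that of all genes tested was 0.01.

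Apod had 4868, 3055 and 2789 normalized counts in ctl neurons and 1709, 2069 and 1946 in dKO neurons. All dKO libraries were below all ctl libraries, with ctl replicate 1 the highest. The means were 3571 ± 1131 and 1908 ± 183, a log2 fold change of -0.90 (SE 0.22, unadjusted p = 0.00302, adjusted p = 0.521, edgeR). With DESeq2 the adjusted p was 0.0293, within a range of 0.0293 to 0.870 over 13 alternatives, and the unadjusted p was under 0.05 in all 13. Without ctl replicate 1 the log2 fold change was -0.61.

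Apoc1 was near the minimum for testing, with 10.2, 7.78 and 9.64 normalized counts in ctl neurons and 48.0, 16.1 and 16.4 in dKO neurons. The dKO libraries lay above the ctl libraries, and dKO replicate 1 was far above the rest. The fitted log2 fold change was 1.53, and 0.81 without dKO replicate 1. It is given as a description with no test, since a gene with this ctl level could pass the minimum only by being high in dKO.

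Apoe in neurons was 15700, 9535 and 9786 normalized counts in ctl and 10602, 10439 and 10957 in dKO. The dKO libraries were close together and within the ctl range, with a log2 fold change of -0.13 (SE 0.21) that turned to 0.14 without ctl replicate 1. Clu was 7134, 5137 and 2843 in ctl and 10854, 5305 and 8126 in dKO. The groups overlapped and the ctl libraries differed widely, with a log2 fold change of 0.68 (SE 0.35, unadjusted p = 0.0872, edgeR). It was 1.02 (unadjusted p = 0.0229, edgeR) without ctl replicate 1, 0.40 without ctl replicate 3 and 0.41 without dKO replicate 1.

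The receptors were low in neurons. Vldlr had 311, 347 and 229 normalized counts in ctl and 731, 239 and 492 in dKO, with dKO replicate 2 inside the ctl range. Its log2 fold change was 0.72 (SE 0.37, unadjusted p = 0.0835, edgeR). It was 0.30 when dKO replicate 1 was left out, and 1.05 when dKO replicate 2 was. The mean was thus higher in dKO neurons and lower in dKO OPCs, but this difference between fractions was not tested. Lrp1 was 761, 665 and 246 in ctl and 864, 694 and 681 in dKO, and its log2 fold change of 0.42 (SE 0.36) was 0.07 without ctl replicate 3 and 0.71 without ctl replicate 1. Sorl1 was 280 to 494 normalized counts over all 6 libraries, with a log2 fold change of 0.09 (SE 0.24). The transporters did not separate either, with log2 fold changes of -0.08 (SE 0.18) for Abca1, -0.16 (SE 0.27) for Abca7 and -0.09 (SE 0.20) for Abcg1, and all 3 turned positive without dKO replicate 1.

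**Figure D2:**
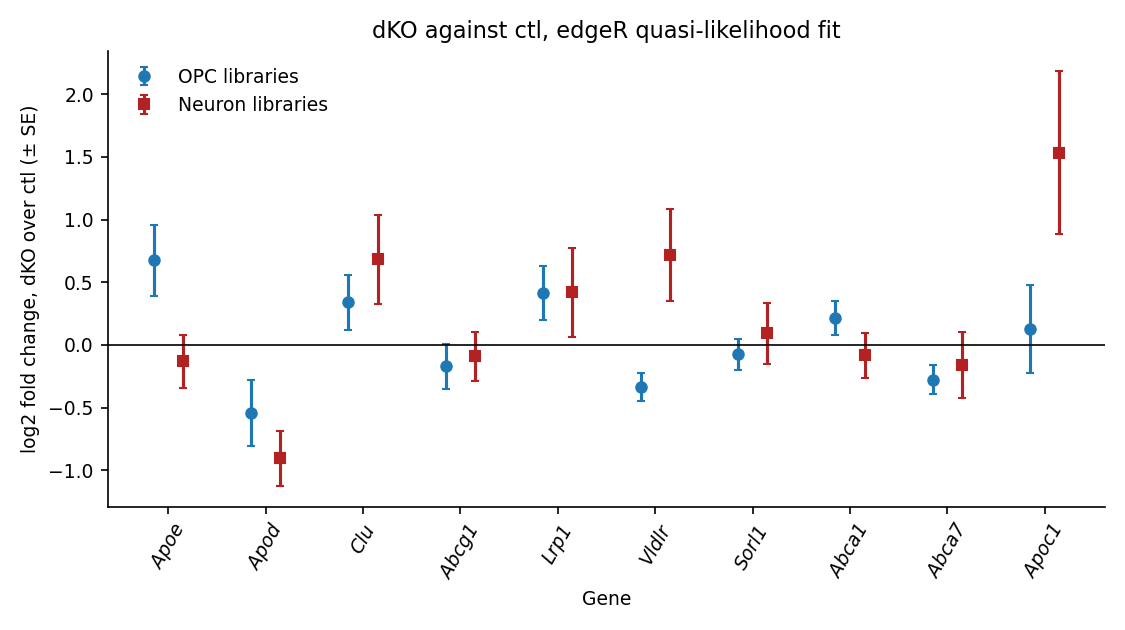
Log2 fold change of dKO over ctl from edgeR's quasi-likelihood fit for the 10 genes in OPCs (blue circles) and neurons (red squares), with bars of 1 SE. Apod is below 0 in both fractions (-0.54 and -0.90), and Vldlr is -0.34 in OPCs and 0.72 in neurons.

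Composition differed between the neuron libraries as well. The choroid plexus and ependyma sum was 26679, 24111 and 12357 TPM in ctl and 67221, 25219 and 42217 TPM in dKO, with 4 of 5 tested markers higher by fold change. In TPM, Apoc1 and Vldlr were highest in dKO replicate 1, the library with the highest of these sums. Clu was 582 TPM there and 581 TPM in dKO replicate 3, while Lrp1 was highest in ctl replicate 1. The endothelial sum was 23066 to 27459 TPM in ctl and 10437, 21065 and 21652 TPM in dKO, with 0 of 10 markers higher, and Apod, Abca1, Abca7 and Abcg1 were lowest in dKO replicate 1, where that sum was lowest. The microglia, astrocyte and perivascular macrophage sums were lowest in that library too. The microglia sum was 2064, 444 and 811 TPM in ctl and 343, 1130 and 628 TPM in dKO, and the astrocyte sum was 560, 228 and 243 TPM in ctl and 111, 302 and 333 TPM in dKO. The oligodendrocyte sum was 2751, 1474 and 337 TPM in ctl and 618, 856 and 1350 TPM in dKO, with 0 of 10 markers higher and a median log2 fold change of -0.95. All 3 sums were highest in ctl replicate 1, where Apoe and Apod were also highest. The neuronal markers summed to 513 to 700 TPM in ctl and to 724 to 921 TPM in dKO, with 9 of 10 higher and groups that did not overlap. No neuronal, endothelial, microglia, astrocyte or oligodendrocyte marker was at 0 in any library. The part of these markers in the differences was not tested.

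**Figure D3:**
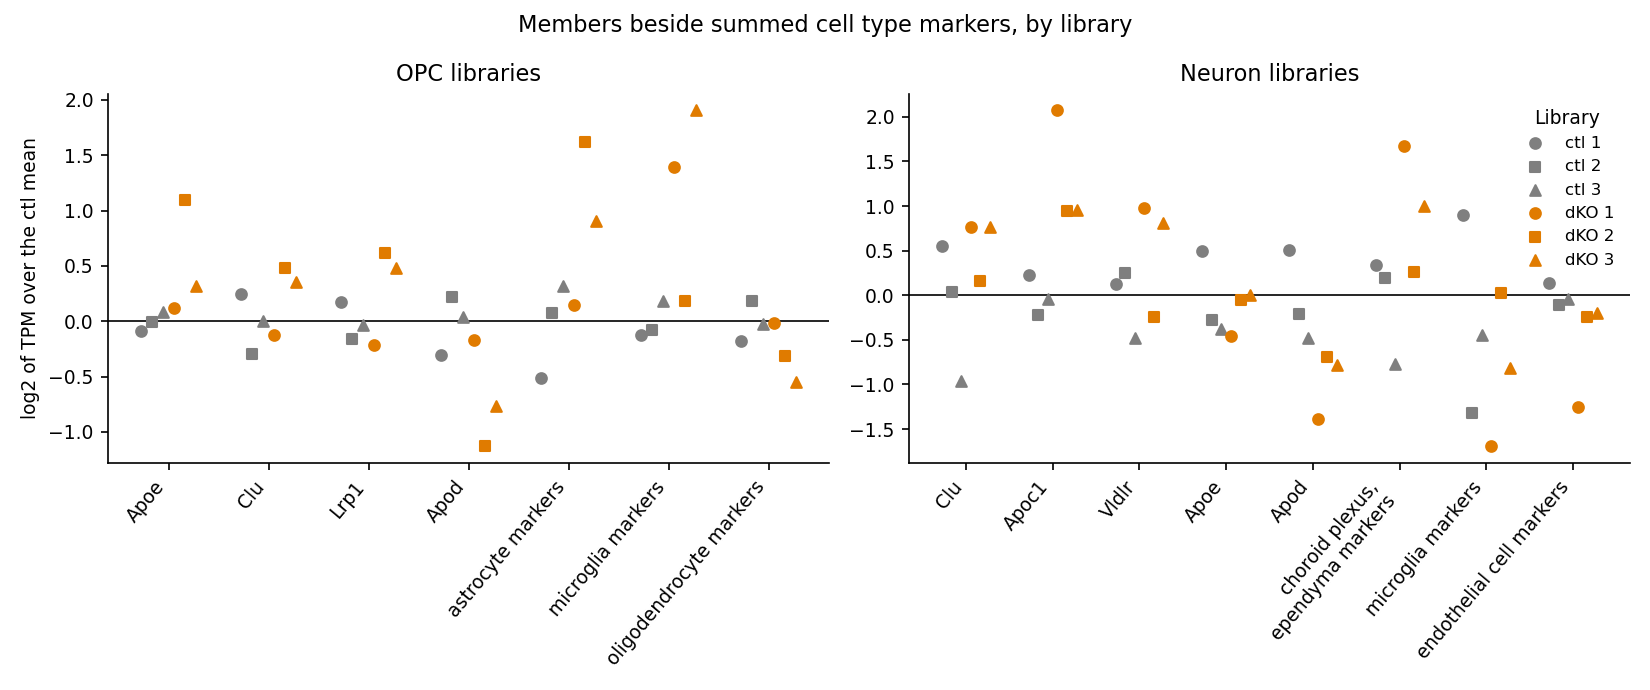
Log2 of the TPM in each library over the ctl mean, for selected genes and for summed cell type markers, in OPCs (left) and neurons (right). Colour gives the group and the symbol gives the replicate. Apoe, Clu, Lrp1 and the astrocyte sum are highest in OPC dKO replicate 2, and Clu, Apoc1 and Vldlr are high in neuron dKO replicate 1, where the choroid plexus sum is high.

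The neuron table gives estimated counts per RefSeq transcript, so the share of each transcript could be followed. Of the genes with several transcripts and a mean of at least 1000 estimated counts, a rule chosen after the table was seen, 4 were compared. The main Apoe transcript NM_009696, which starts at the first base of the first Apoe start above, took 88.5%, 90.3% and 88.8% of the Apoe estimated counts in ctl and 84.1%, 82.1% and 85.8% in dKO. Every dKO share was below every ctl share, with means of 89.2% ± 0.94 and 84.0% ± 1.86, a difference of -5.15 points. Under the same rule, main transcript shares did not overlap for 8.99% of 2747 genes of the table (5.35% lower and 3.64% higher in dKO). An exact two-sided permutation test gave p = 0.1 for Apoe, the smallest that 3 libraries against 3 allow, and a Benjamini-Hochberg adjusted p of 0.4 over the 4 genes. The transcripts NM_001305844 and NM_001305819 took most of the rest. Both start 781 bases downstream in GENCODE M21, near the second Apoe window printed. They ran from 5.47% to 13.4% and from 2.22% to 7.67% over the libraries.

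For the main transcripts of Apod, Clu and Abca1 the shares overlapped. Apod NM_007470 took 70.5% ± 0.43 in ctl and 70.9% ± 7.60 in dKO (exact permutation p = 1). Clu NM_013492 took 77.0% ± 3.76 and 75.9% ± 4.47 (exact permutation p = 0.7), and Abca1 NM_013454 took 84.2% ± 8.35 and 77.5% ± 1.22 (exact permutation p = 0.4). The shares are estimates of a model whose program is not clear from the sources used here. For Abca7 the share of NM_001347081 ran from 0% to 100% between libraries of a group.

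**Figure D4:**
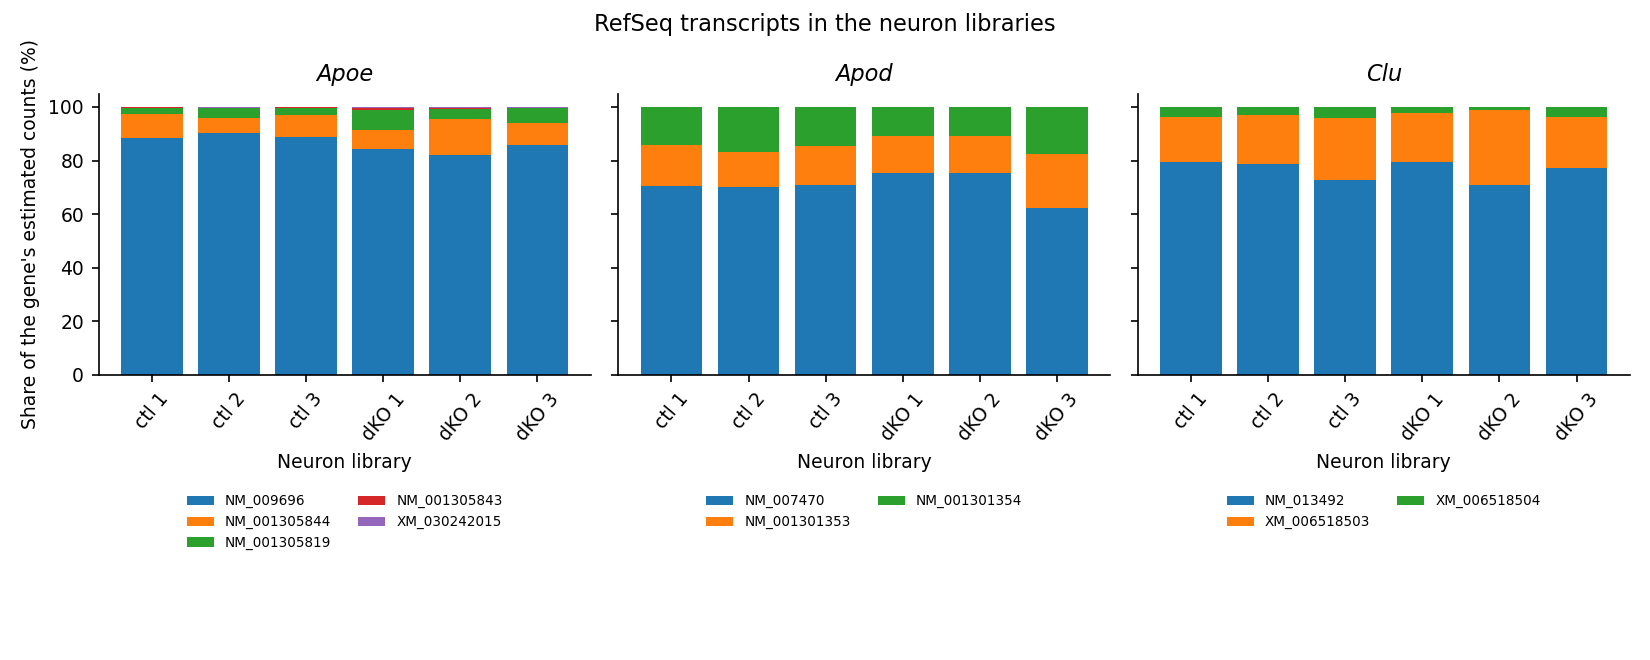
Share of the estimated counts of Apoe, Apod and Clu on each RefSeq transcript in the 6 neuron libraries, as stacked bars that sum to 100%. The blue part, the main transcript, is 88.5% to 90.3% of Apoe in ctl and 82.1% to 85.8% in dKO.

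Other genes of lipoprotein transport were taken from a list of 77. The list was chosen with earlier results of these data known, so shares over it are a description. In OPCs 60 were tested, and 16 had an unadjusted p under 0.05, which is 26.7% against 11.5% of all genes tested. Of these, 9 were higher in dKO and 7 lower, and 0 of the 60 had an adjusted p under 0.05 (edgeR). The median log2 fold change was 0.04, against 0.01 over all genes tested. The count was 10 without ctl replicate 2, where that of all genes was 1106 in place of 2003. Of the receptors and adaptors, Trem2, a microglial receptor that binds lipoproteins, had 130.5 ± 37.6 normalized counts in ctl and 309 ± 128 in dKO (log2 fold change 1.24). Its dKO normalized counts of 336, 169.7 and 422 were highest in replicates 1 and 3, as were the microglia, perivascular macrophage and endothelial sums. Its ctl normalized counts of 139, 89.3 and 163 did not have the order of the microglia sum. The part of these markers was not tested.

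The other ABC transporters were split. Abca8b was 893 ± 85.4 normalized counts in ctl OPCs and 553 ± 89.0 in dKO OPCs (log2 fold change -0.69). Its dKO normalized counts of 627, 578 and 455 had the order of the oligodendrocyte and OPC sums. Abca8b and both sums were highest among ctl in replicate 2. Abca6 was 354 ± 40.5 and 252 ± 38.3 (log2 fold change -0.49). Abca9 was 195 ± 27.3 and 495 ± 329 (log2 fold change 1.34). Its dKO normalized counts of 377, 241 and 868 had the order of several sums. These were the microglia, perivascular macrophage, endothelial, pericyte (with smooth muscle) and fibroblast (with meninges) marker sums. Its ctl normalized counts of 205, 164 and 216 had the order of the endothelial, pericyte and fibroblast sums, but not of the microglia or perivascular macrophage sum. Of the enzymes, Lcat, which esterifies cholesterol on lipoproteins, was 208 ± 11.4 and 365 ± 95.1 (log2 fold change 0.81), and its dKO normalized counts of 271, 461 and 364 had the order of the astrocyte sum. Angptl4, an inhibitor of lipoprotein lipase, was 54.7 ± 19.1 and 112 ± 53.5 (log2 fold change 1.03). Its dKO normalized counts of 134, 50.8 and 151 had the order of all the sums named for Abca9. Its ctl normalized counts of 35.0, 56.0 and 73.1 had the order of the microglia and astrocyte sums. The liver X receptor gene Nr1h3 was 57.8 ± 7.82 and 90.8 ± 12.3 (log2 fold change 0.65). Its dKO normalized counts of 86.0, 81.7 and 104.8 had the order of all the sums named for Abca9. Its ctl normalized counts of 63.0, 48.8 and 61.6 had the order of none of them. Sorcs1, a relative of Sorl1, was 1214 ± 143 and 892 ± 87.2 (log2 fold change -0.44). Its normalized counts of 1066, 1352 and 1223 in ctl and 975, 898 and 801 in dKO had the order of the oligodendrocyte and OPC sums within each group. The part of these markers was not tested. All of the genes named in OPCs had an unadjusted p under 0.05 and an adjusted p above 0.05 with edgeR.

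In neurons 56 of the list were tested and 7 had an unadjusted p under 0.05, which is 12.5% against 9% of all genes tested, with 2 higher and 5 lower and 0 at an adjusted p under 0.05 (edgeR). The median log2 fold change was 0.01. Angptl4 was 546 ± 135 normalized counts in ctl and 282 ± 55.3 in dKO (log2 fold change -0.95). Its mean was higher in dKO OPCs, and this difference between fractions was not tested. Abca4, a transporter of retinoid lipids, was 263 ± 84.5 and 597 ± 169 (log2 fold change 1.18). Its normalized counts of 275, 341 and 174 in ctl and 766, 429 and 595 in dKO were highest in dKO replicates 1 and 3 and lowest in ctl replicate 3, as was the choroid plexus sum. Abca5 was 327 ± 51.0 and 464 ± 58.9 (log2 fold change 0.50). Scarb1, the HDL receptor, was 2806 ± 213 and 2049 ± 498 (log2 fold change -0.45). Scarb1 (1506 normalized counts) and Angptl4 (226) were lowest in dKO replicate 1, where the endothelial, microglia, astrocyte and perivascular macrophage sums were lowest. The part of these markers was not tested. Nceh1, a cholesteryl ester hydrolase, was 681 ± 35.5 and 496 ± 53.7 (log2 fold change -0.46), Lmf1, a lipase maturation factor, was 278 ± 47.4 and 190.5 ± 27.9 (log2 fold change -0.55), and Apol9b was 28.0 ± 11.5 and 7.11 ± 5.87 (log2 fold change -1.96). Apol9b was tested through its high ctl libraries alone. Without it and Rxrg, whose ctl mean of 8.16 was also under the minimum, 6 of 54 passed, which is 11.1%.

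**Figure D5:**
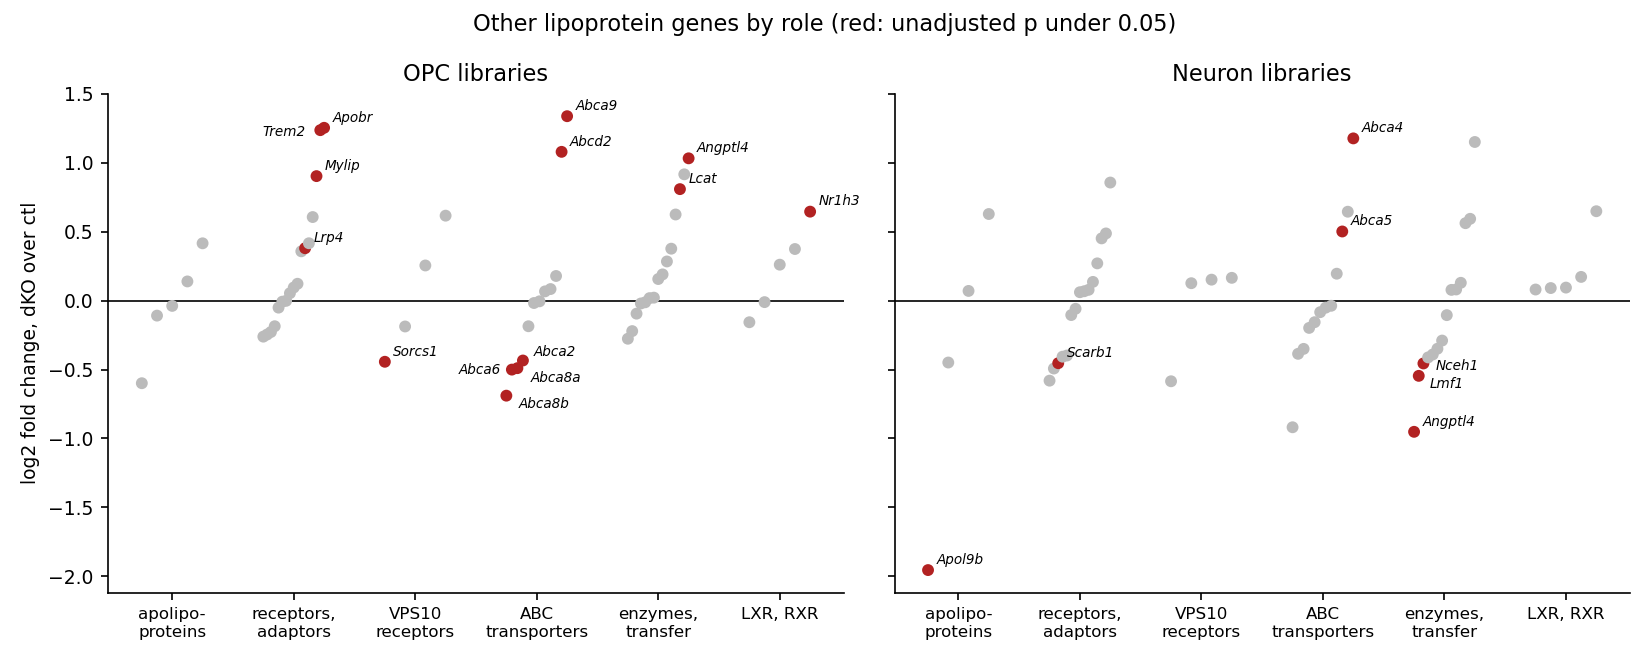
Log2 fold change of dKO over ctl for tested genes of the wider list by role, in OPCs (left, 58 genes) and neurons (right, 54 genes), without 2 genes that are counted in the text and not shown. Genes with an unadjusted p under 0.05 are red and named (14 and 7), and values lie on both sides of 0 in most roles.

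Genes beside Apoe on chromosome 7 were compared to see whether its difference was shared along the locus. Of 7 neighbours, 5 were tested in OPCs and 0 had an unadjusted p under 0.05 or an adjusted p under 0.05 (edgeR), against 11.5% and 0.00576% of all genes tested. Tomm40, next to Apoe, had a log2 fold change of 0.04 (SE 0.16) in OPCs and 0.04 (SE 0.14) in neurons. In neurons 1 of 5 passed at an unadjusted p, against 9% of all genes tested. This was Relb, with 244 ± 30.3 normalized counts in ctl and 168 ± 2.69 in dKO (log2 fold change -0.54).

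The genes whose levels followed each member most closely were listed by Pearson's r of log2 CPM (counts scaled to library size) over the 6 libraries of a fraction, as a description. In OPCs Adcy3 (r = 0.997), Rims3 (r = 0.995) and Smim45 (r = 0.992) were most like Apoe, and 121 of 17364 genes had r above 0.95. Taf15 (r = 0.994), Slc38a10 (r = 0.991) and Gm26519 (r = 0.990) were most like Apod. In neurons Ttyh1 (r = 0.992), Cdk6 (r = 0.985) and Cspg5 (r = 0.980) were most like Apoe, and Gsta4 (r = 0.997), Casp12 (r = 0.993) and Ttc38 (r = 0.990) were most like Apod. With 6 libraries that share group and composition, such values are reached by many genes.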

How the data were processed

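The libraries were polyA-selected and sequenced as paired-end reads. In the OPC table, the authors deposited raw counts and FPKM values by Ensembl gene. HISAT2 (GRCm38) and featureCounts are named in the methods for all samples, whereas the submitters' processing notes name mm39, and no deposited gene position of the 10 genes was the same in GRCm38.p6, so no file coordinates are given. In the neuron table, each RefSeq transcript has an estimated count, a TPM and an FPKM value deposited by the authors. These values are fractional and per transcript, which featureCounts does not give by default, so the program behind them is not clear. The deposited tables also hold the authors' own fold changes and p-values, which were not used.

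Estimated counts were summed per gene and rounded, and 17794 of 17918 genes matched a symbol in RefSeq, with 0.0441% of counts on the rest. In each table, the test of dKO against ctl took the genes whose TMM-normalized count averaged 10 or more, with edgeR 4.0.16 (R 4.3.3; quasi-likelihood test, genotype as the only term, Benjamini-Hochberg adjustment over all genes tested). The SE was obtained from the log2 fold change and its F statistic. Normalized counts carry TMM factors over the tested genes, as in the fit. They were first made with factors over the whole table and were changed after those values had been seen. TPM for OPCs was rescaled from the deposited FPKM, and for neurons the deposited TPM was summed per gene. Script steps were tested on simulated data. DESeq2 1.42.0 and limma 3.58.1 gave alternatives, with a pseudocount of 1 on FPKM. The members and lists were chosen with earlier results of these data known. Genes named from the wider list were, per role and fraction, the up to 3 with the smallest unadjusted p, given where that p was under 0.05. Of these, 2 are not reported here, although the counts over the list include them. Libraries of a group differed beyond sampling noise (lowest chi-square per gene 15.9) and came from separate mice, so p-values measure the spread between pools of 2 mice.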

Additional observations from a re-analysis of the deposited data

How the results depend on the processing

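The number of genes with an adjusted p under 0.05 depended on the tool, and the cause was not tested. In OPCs it was 1 with edgeR's quasi-likelihood test, 293 with DESeq2, 296 with edgeR's likelihood-ratio test, 87 without a filter on low counts and 2 with limma on log2(FPKM + 1), and 1 to 199 with each library left out (199 without dKO replicate 2). In neurons it was 0, 88 with DESeq2, 43 with the likelihood-ratio test, and 0 with each library left out. Members at an unadjusted p under 0.05 numbered 3 in OPCs, against 11.5% of all genes tested. The number was 4 with DESeq2, 4 without the filter, 1 with limma and 0 to 5 with a library left out. In neurons the planned count of 2 included Apoc1, which passed the minimum only through its dKO libraries, so it is not used. Without Apoc1, a count added after seeing the data, the neuron number was 1, against 9% of all genes tested. It was 2 by DESeq2, 2 with the replicate block and 1 to 3 with a library left out. At a minimum of 50, which Apoc1 did not reach in either table, the numbers were 3 in OPCs and 1 in neurons. With a library left out, the OPC table gave 1106 to 2292 genes at an unadjusted p under 0.05 and 10 to 19 pathway genes, and the neuron table gave 780 to 1581 and 5 to 9.

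The replicate numbers did not pair the samples. Same-numbered deviations correlated at -0.15, 0.19 and 0.17 in OPCs and at 0.17, -0.04 and -0.05 in neurons. With the replicate number as a block, the OPC table gave 27 genes at an adjusted p under 0.05, and the neuron table gave 0. At an unadjusted p under 0.05, 2025 of 17364 genes passed in OPCs, with 1 member among them. In neurons 1285 of 14352 passed, with 2 members, Apod and Clu (unadjusted p = 0.0418 for Clu, edgeR).

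For the members, 137 of 138 log2 fold changes under other settings kept direction and side of the threshold, an adjusted p of 0.05. The other 1, Apod in neurons with DESeq2, passed (-0.91, adjusted p = 0.0293). In the main fit 1 gene in OPCs and 0 in neurons reached that threshold, so keeping its side says little. At an unadjusted p of 0.05 members did cross. In OPCs, Apoe stayed under it in 7 of 13 alternatives and Abca7 in 5 of 13. With a library left out, 110 of 120 log2 fold changes kept direction and side of the adjusted threshold. The 10 reversals were in ranges of -0.078 to 0.38 for Apoc1 in OPCs (2 reversals) and, in neurons, of -0.26 to 0.14 for Apoe (1), -0.20 to 0.058 for Abca1 (2), -0.44 to 0.059 for Abca7 (1), -0.28 to 0.052 for Abcg1 (2) and -0.17 to 0.26 for Sorl1 (2). Transcript share differences ranged from -6.06 to -4.20 points for Apoe, -1.83 to 4.83 for Apod, -3.27 to 1.39 for Clu and -11.6 to -3.96 for Abca1. An added alternative, chosen after seeing the data, scaled printed counts by factors over the whole table. Genes whose groups do not overlap then numbered 2848 in place of 2944 in OPCs (1491 higher and 1357 lower in place of 1286 and 1658) and 2202 in place of 2199 in neurons. Members in OPCs stayed at 3, against 17% of all genes tested in the main setting. In neurons, with Apoc1 left out as above, Apod alone stayed apart, against 15.3% of all genes tested. The biological coefficient of variation was 20.5% in OPCs and 27.7% in neurons. Depth was lowest for Apoc1 in neurons, with 8 to 49 estimated counts per library.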
